A study of Mus musculus with 6 samples.

Results

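The genes described here fold and translocate proteins in the endoplasmic reticulum, and were followed in whole uteri of ovariectomised mice after a single injection of estradiol. They were chosen by symbol, with earlier results of these data known. The list holds 38 chaperones, disulfide and prolyl isomerases, translocon subunits, glycosylation subunits and regulators of the unfolded protein response. Of these, 35 are on the array by a probe set of their own (Ero1l under its present symbol Ero1a), with 54 probe sets of the 12422 used. Sdf2l1, Sil1 and Sec61g were not analysed here, Sec61g because its probe set is shared with other genes. A gene was represented by its brightest probe set and counted as measured if that reached the detection floor of 142.8 signal units on at least 1 array. So defined, 32 of the 35 were measured, against 6562 of the 8251 named genes. The probe sets of Hyou1, Calr and Ssr4 stayed below the floor on every array.

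The endoplasmic reticulum receives proteins destined for secretion, membranes and the cell surface. They enter through the Sec61 channel, are glycosylated by the oligosaccharyltransferase, and fold with the help of Hsp70 and Hsp90 type chaperones, lectin chaperones and enzymes that form disulfide bonds and turn prolines. When unfolded proteins build up, the unfolded protein response raises many of these genes through the transcription factors ATF6 and XBP1 and through ATF4. In the uterus estradiol is known to drive growth, water uptake and epithelial secretion.

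The mice were C57BL/6 females, given as 10 to 11 weeks old, although another label has them arrive at 10 weeks and acclimate for 3 weeks. All were ovariectomised and killed 7 days later, so every group, vehicle included, lacked ovarian hormones. The groups were vehicle, injected 24 h before sacrifice, and estradiol (0.05 µg per mouse, under the skin) at 1, 6, 12 and 24 h before sacrifice, and a group labelled 3 h. The vehicle time is that of its source label, whereas its title gives another time. Each group is 1 Affymetrix U74Av2 array of RNA pooled from several uteri. A number of 10 mice is stated, with no word on whether each group had that many.

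No group has a replicate, so the spread between animals is unknown, no test was possible, and each comparison describes 2 arrays. All comparisons share the single vehicle array, which by its source label matches only the 24 h group in time since injection. Values are signals on a linear scale after each array was brought to the same trimmed mean. Ratios were taken on the log2 scale after raising values below the floor to it, and a ratio of 2-fold or more served to count genes. Where vehicle or the estradiol array was itself below the floor, a fold is a bound and reads "at least". In pooled whole organs, more cells of a type and more RNA per cell cannot be told apart.

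The array labelled 3 h stands apart, and most smooth muscle and epithelial markers of a uterus were lower on it, 10 of 14 in the case of the epithelium. Across probe sets it correlated with the other arrays at Spearman's rho of 0.843 to 0.857, whereas the other 10 pairs lay at 0.929 to 0.968. Of 8 measured smooth muscle markers 7 were at least 2-fold lower on it than in vehicle, with a summed signal of 7322 on the array labelled 3 h and 40529 to 68871 on the others. Acta2, the actin of smooth muscle, had a signal of 684 on it and 10350 in vehicle, and the epithelial keratin Krt19 had 5.2 on it and 2198 in vehicle. Of the epithelial markers 2 were higher on it, Lcn2 at 9662 on the array labelled 3 h and 220.3 in vehicle and Ltf at 11157 and 2689, and with them the epithelial sum was 21675 on it and 15704 in vehicle. Of 10 plasma and B cell markers 6 were at least 2-fold higher on it and 2 lower, with Ighm at 6287 on the array labelled 3 h and 1208 in vehicle. Its values are therefore given apart, and no time course below includes it.

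Most of the folding and translocation genes had higher signal than vehicle at 6 and 12 h after estradiol, 27 and 28 of the 32 measured, whereas 13 did at 1 h and 26 at 24 h. A count of any increase was not taken over all measured genes, whose median log2 ratio was 0.00 at each of these 4 times. At 6 h, 17 of these 32 genes were at least 2-fold above vehicle and none was 2-fold below it. Over all measured genes 6.34% were higher and 8.35% lower. At 12 h, 18 of 32 were higher and none lower, against 6.16% and 6.93% of all measured genes. At 24 h, 7 of 32 were higher and none lower (3.41% and 3.54% of all measured genes). At 1 h none was past 2-fold in either direction (0.853% and 0.351%). Since the list was chosen with earlier results of these data known, these shares describe it and are not a test of it. The counts at 24 h depended on the array compared with, since 12 were higher when the 1 h array was used in its place.

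The median log2 ratio of the 32 measured genes was -0.09, 1.01, 1.19 and 0.60 at 1, 6, 12 and 24 h, beside a median of 0.00 over all measured genes at each of these times. Fkbp11 passed the floor through the estradiol arrays, and Edem1 through the array labelled 3 h only, so both entered the measured set because of high values. Over the 30 of these genes at or above the floor in vehicle, 0, 16, 17 and 6 were 2-fold higher at 1, 6, 12 and 24 h. Their medians were -0.10, 1.01, 1.19 and 0.60, beside -0.03, -0.09, -0.08 and -0.07 over the 5748 genes that meet the same rule.

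The array with the highest signal differed from gene to gene. Among the 5 arrays from vehicle to 24 h, 11 of the 32 were highest at 6 h, 12 at 12 h and 3 at 24 h, while 3 were highest at 1 h, 2 in vehicle and Edem1 lay below the floor on all 5. Over all measured genes 1440 were highest in vehicle and 1439, 1294, 1063 and 1095 at 1, 6, 12 and 24 h. The Hsp70, Hsp90 and J-domain chaperones, with Manf and Creld2, made up 6 of the 11 that were highest at 6 h. The isomerases, translocon and glycosylation subunits made up 11 of the 12 that were highest at 12 h, and the collagen chaperone Serpinh1 was the remaining one. Many of these ranks rest on small differences between single arrays. Between 6 and 12 h the fold was 1.02 for Xbp1, 1.09 for Creld2 and 1.14 for Serpinh1, and only Pdia3, Pdia4 and Fkbp11 passed 2-fold. Sec61a1 and Ssr3, highest at 6 h by their brightest probe sets, each had a further probe set that was highest at 12 h.

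**Figure D1:**
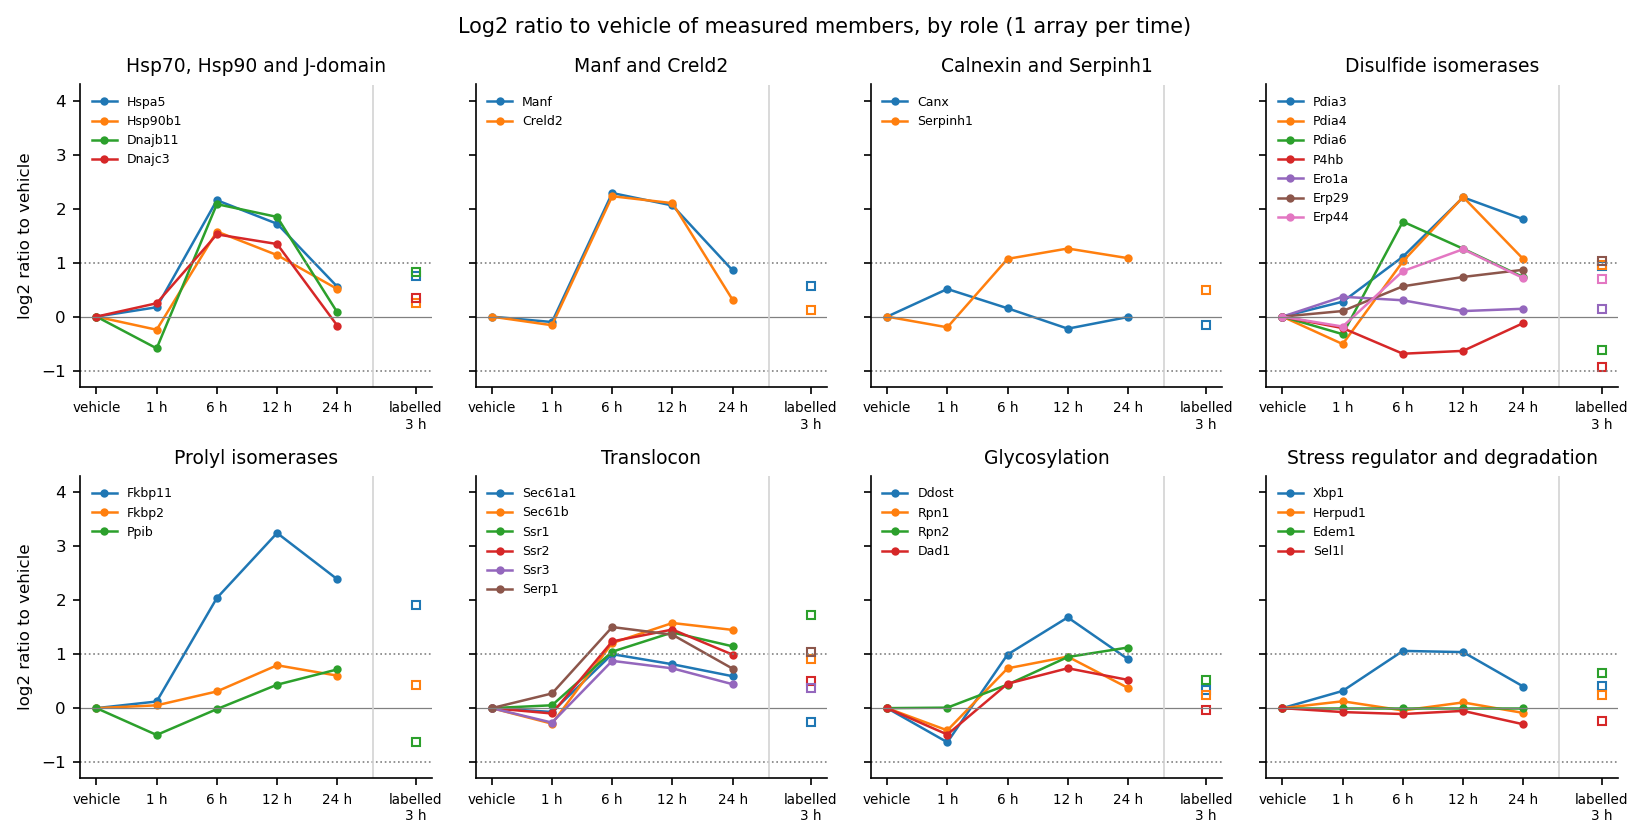
Log2 ratio to vehicle (y axis) of the 32 measured genes, in 8 panels by role, at 1, 6, 12 and 24 h after estradiol (x axis, joined circles) and on the array labelled 3 h (open squares, apart), with 1 array per point and dotted lines at 2-fold. The Hsp70, Hsp90 and J-domain chaperones, Manf and Creld2 are highest at 6 h and less than 2-fold above vehicle at 24 h, whereas Fkbp11, Pdia3 and Sec61b stay more than 2-fold above vehicle at 24 h.

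Hspa5 encodes BiP, the Hsp70 of the endoplasmic reticulum, which binds unfolded chains and holds the stress sensors inactive. Its signal was 2593 in vehicle and 2924, 11566, 8543 and 3806 at 1, 6, 12 and 24 h. It was thus 4.46-fold above vehicle at 6 h and 3.30-fold at 12 h, but 1.47-fold at 24 h. The 6 and 12 h arrays were both above all the others.

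The partners of BiP and Hsp90b1 were likewise highest at 6 h and next highest at 12 h. Dnajb11, a J-domain protein that feeds substrates to BiP, had signals of 253 in vehicle and 169, 1074, 911 and 267 at 1, 6, 12 and 24 h, and was 4.24-fold higher at 6 h than in vehicle. At 24 h it was 1.06-fold above vehicle, the level there being 3.41-fold lower than at 12 h. Dnajc3, a J-domain protein also known as an inhibitor of the eIF2 alpha kinases, had 558 in vehicle and 663, 1604, 1416 and 497 at 1, 6, 12 and 24 h. It was 2.88-fold and 2.54-fold higher at 6 and 12 h, and 1.12-fold lower than vehicle at 24 h. Its other probe set above the floor on all arrays was 2.86-fold and 2.15-fold higher at 6 and 12 h. Hsp90b1, or GRP94, the Hsp90 of this compartment, had 3273 in vehicle and 2765, 9762, 7211 and 4669 at 1, 6, 12 and 24 h. Its fold over vehicle was 2.98 at 6 h and 2.20 at 12 h.

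Manf and Creld2, small proteins of the compartment that are known to be induced by its stress and partly secreted, were both over 4-fold above vehicle at 6 and 12 h. Manf had signals of 668 in vehicle and 623, 3268, 2784 and 1209 at 1, 6, 12 and 24 h, or 4.89-fold above vehicle at 6 h and 4.17-fold at 12 h. Creld2 had 310 in vehicle and 278, 1456, 1331 and 385 at 1, 6, 12 and 24 h, or 4.69-fold and 4.29-fold. At 24 h Creld2 was 3.46-fold lower than at 12 h, and Manf 2.30-fold lower.

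**Figure D2:**
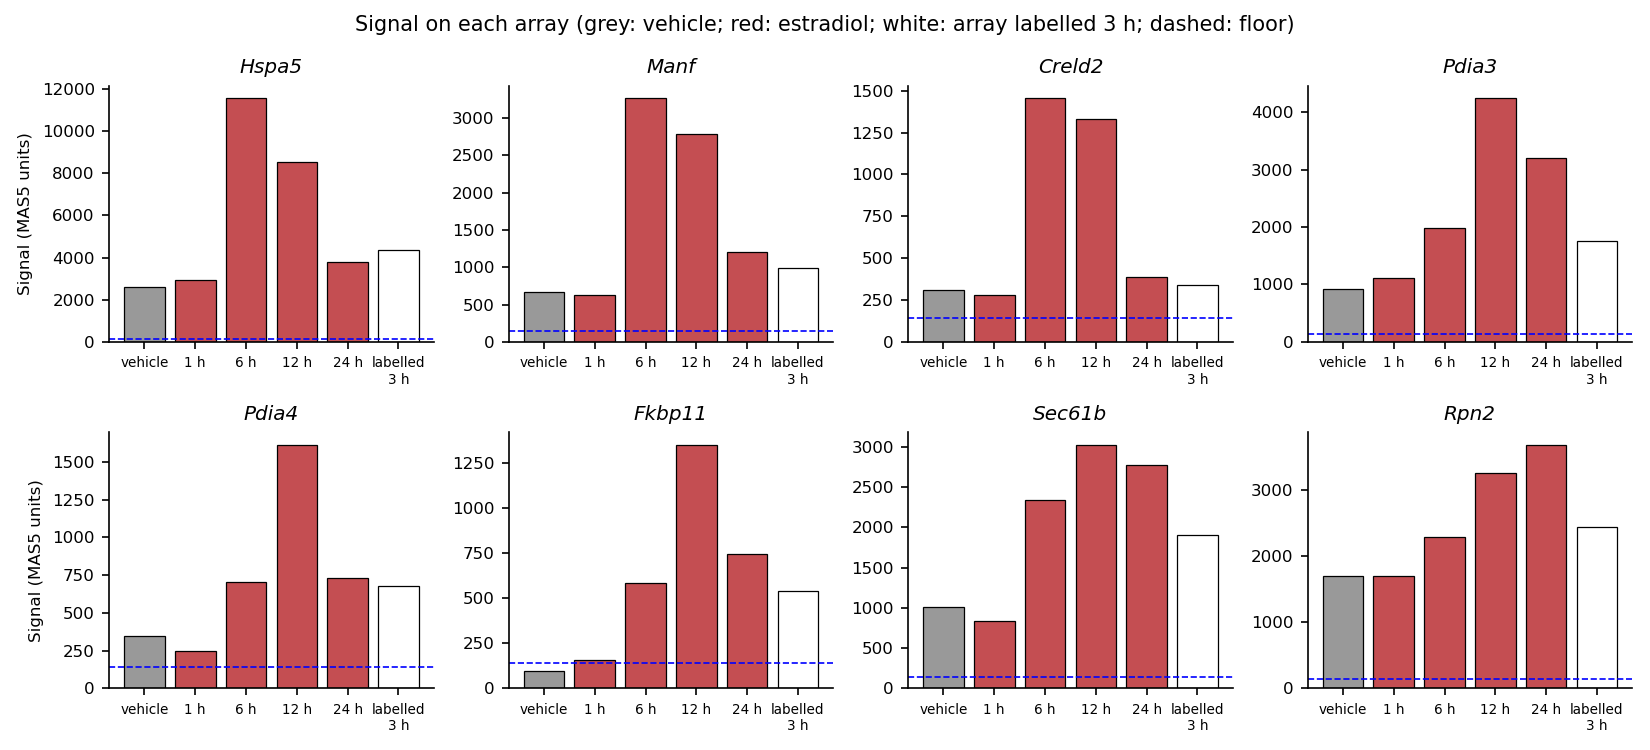
Signal in MAS5 units (y axis, from 0) of 8 genes on each array (x axis): vehicle in grey, estradiol at 1, 6, 12 and 24 h in red, and the array labelled 3 h in white, with the floor of 142.8 as a dashed line and 1 array per bar. Hspa5, Manf and Creld2 are highest at 6 h, Pdia3, Pdia4, Fkbp11 and Sec61b at 12 h, and Rpn2 at 24 h.

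Of the 32 measured genes, 6 were at least 2-fold lower at 24 h than at 12 h, and none was 2-fold higher (2.47% and 2.88% of all measured genes). They were Hspa5, Dnajb11, Dnajc3, Manf and Creld2, and the disulfide isomerase gene Pdia4. No gene of the list was 2-fold lower at 12 h than at 6 h, and 3 were 2-fold higher, namely Pdia3, Pdia4 and Fkbp11, where 1.33% and 1.65% of all measured genes were lower and higher.

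The promoters of the chaperone genes are shown because ATF6 and XBP1 act on a known element in them. This endoplasmic reticulum stress element (ERSE) consists of CCAAT, then 9 free bases, then CCACG. It was searched on both strands from 250 bases before to 50 bases after the annotated start, with promoters from RefSeq on GRCm38.p6. It was first described in promoters of genes such as Hspa5, Hsp90b1 and Calr, so finding it there is background and not independent of the list. Promoters were found for 32 of the 38 symbols. Those of Manf, Erp29, Sec61a1, Ssr2, Hyou1 and Sil1 were not in the table used. The ERSE was present in 7 of the 32, namely Hspa5, Hsp90b1, Dnajc3, Creld2, Pdia6, Canx and Calr, and in 37 of all 27025 genes with a promoter (0.137%). Each promoter below reads 5′ to 3′ along its gene, with the fixed bases of the element in capitals, and an element on the other strand appears as its reverse complement. They lie at chr2:34771840-34772139 (plus strand, Hspa5), chr10:86705395-86705694 (minus strand, Hsp90b1), chr15:88819396-88819695 (plus strand, Creld2), chr14:118937682-118937981 (plus strand, Dnajc3), chr12:17266339-17266638 (plus strand, Pdia6) and chr11:50325624-50325923 (minus strand, Canx).
Hspa5: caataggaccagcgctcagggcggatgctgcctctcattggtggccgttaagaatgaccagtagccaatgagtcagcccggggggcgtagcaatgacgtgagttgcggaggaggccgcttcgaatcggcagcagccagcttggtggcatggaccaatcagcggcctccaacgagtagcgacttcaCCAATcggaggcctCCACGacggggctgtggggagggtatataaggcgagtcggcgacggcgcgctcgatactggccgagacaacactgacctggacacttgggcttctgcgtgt
Hsp90b1: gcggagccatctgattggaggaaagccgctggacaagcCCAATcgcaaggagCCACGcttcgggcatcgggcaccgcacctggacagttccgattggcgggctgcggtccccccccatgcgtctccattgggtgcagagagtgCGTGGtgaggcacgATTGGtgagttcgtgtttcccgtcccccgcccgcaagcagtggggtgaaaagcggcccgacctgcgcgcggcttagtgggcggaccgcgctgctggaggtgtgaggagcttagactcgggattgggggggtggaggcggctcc
Creld2: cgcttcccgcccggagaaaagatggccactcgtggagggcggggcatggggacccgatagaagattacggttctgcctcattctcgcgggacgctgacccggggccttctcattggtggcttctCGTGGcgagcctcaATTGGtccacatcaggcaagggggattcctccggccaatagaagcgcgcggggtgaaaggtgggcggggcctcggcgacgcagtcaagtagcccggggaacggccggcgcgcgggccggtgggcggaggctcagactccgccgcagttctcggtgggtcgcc
Dnajc3: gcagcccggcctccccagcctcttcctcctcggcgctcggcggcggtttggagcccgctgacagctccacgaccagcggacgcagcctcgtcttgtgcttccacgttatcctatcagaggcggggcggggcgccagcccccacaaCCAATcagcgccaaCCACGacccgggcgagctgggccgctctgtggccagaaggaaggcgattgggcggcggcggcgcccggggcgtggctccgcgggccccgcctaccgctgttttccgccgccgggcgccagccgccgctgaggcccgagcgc
Pdia6: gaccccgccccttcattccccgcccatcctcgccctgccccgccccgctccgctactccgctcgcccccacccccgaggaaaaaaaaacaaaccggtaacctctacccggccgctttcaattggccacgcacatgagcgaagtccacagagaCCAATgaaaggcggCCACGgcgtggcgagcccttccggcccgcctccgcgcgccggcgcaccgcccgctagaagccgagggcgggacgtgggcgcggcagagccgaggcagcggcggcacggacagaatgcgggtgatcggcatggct
Canx: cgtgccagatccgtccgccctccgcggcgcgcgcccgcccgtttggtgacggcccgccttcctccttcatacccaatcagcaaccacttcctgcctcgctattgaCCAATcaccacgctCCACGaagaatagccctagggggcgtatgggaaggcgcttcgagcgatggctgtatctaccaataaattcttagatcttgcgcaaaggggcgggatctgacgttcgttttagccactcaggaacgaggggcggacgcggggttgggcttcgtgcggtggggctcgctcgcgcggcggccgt

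The element began 65 bases before the start in Hspa5, 98 in Pdia6, 105 in Dnajc3, 126 in Creld2 and 145 in Canx. In Hsp90b1 it was present on both strands, 212 and 107 bases before the start. Of the 6 measured genes with an ERSE, 5 were highest at 6 h, and by their brightest probe sets these 5 were all at least 2-fold above vehicle at 6 and 12 h and none at 24 h. Of their further probe sets, 1 of Pdia6 was 2.13-fold above vehicle at 24 h, and Dnajc3 at 12 h had a log2 ratio of 0.69 by the median of its probe sets. The remaining one, Canx, was highest at 1 h by its brightest probe set. Of the 22 measured genes whose promoter lacked it, 4 were highest at 6 h and 11 at 12 h. Among these, 9, 11 and 7 were at least 2-fold above vehicle at 6, 12 and 24 h. Over all measured genes the shares 2-fold higher at these times were 6.34%, 6.16% and 3.41%. The median log2 ratio was 1.67 at 6 h and 0.41 at 24 h with the element. Without it the median was 0.86 at 6 h and 0.66 at 24 h, with Edem1, below the floor, counted as 0. Dnajb11, which lacks the element, was also highest at 6 h, at 2.08, and stood at 0.08 at 24 h. The 4 measured genes with no promoter found had medians of 1.12 and 0.86, and 2 of them were highest at 6 h. Any part of the element in these courses was not tested. With the last base of the element left free, a form looked at after these values were known, Pdia3, Pdia4 and Herpud1 held it too, as did 0.429% of all genes, and these 3 were not highest at 6 h. A further element bound by XBP1 and ATF6, searched only in the exact form TGACGTGG, was in none of the 32 promoters and in 0.714% of all genes. Forms of it with a base left free were not searched. The CCAAT box, which is contained in the ERSE, was in 26 of the 32, against 41.1% of all genes. These are matches of letters in a fixed window, and no binding was measured.

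**Figure D3:**
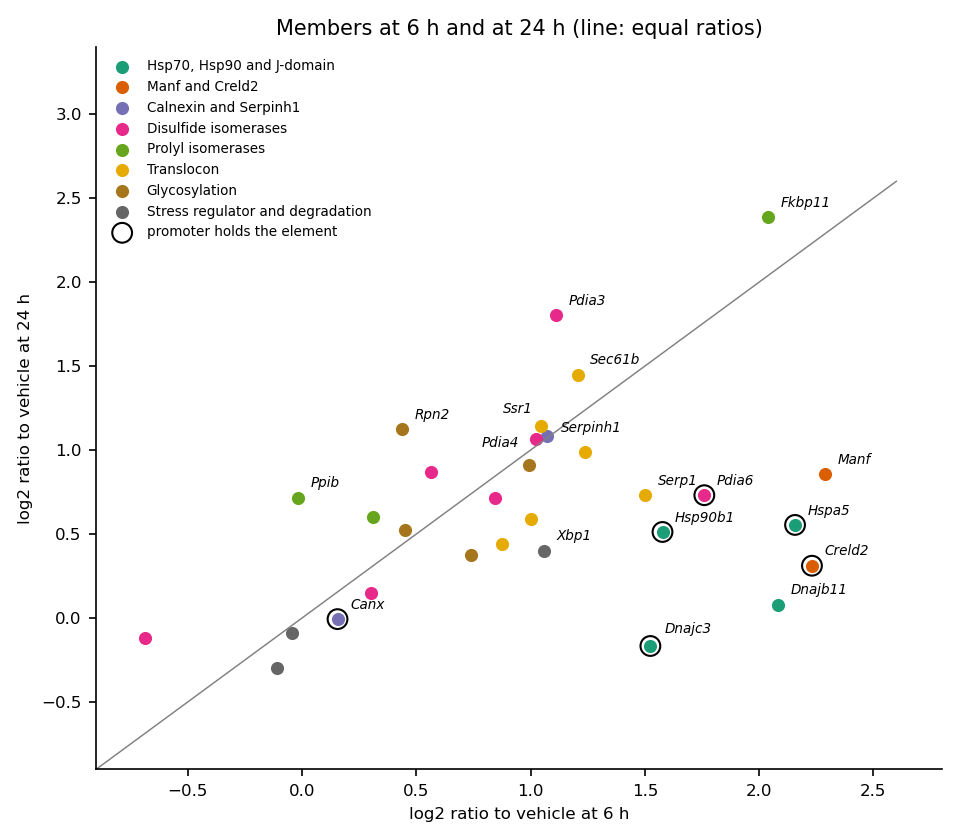
Log2 ratio to vehicle at 6 h (x axis) and at 24 h (y axis) of 31 measured genes, coloured by role, with 1 array per time, a line of equal ratios and a ring around genes whose promoter holds the ERSE; both values of Fkbp11 are lower bounds. The ringed genes other than Canx lie far below the line, at 1.52 to 2.23 at 6 h and -0.17 to 0.73 at 24 h. So do Dnajb11, whose promoter lacks the element, at 2.08 and 0.08, and Manf, at 2.29 and 0.86. Manf, Erp29, Sec61a1 and Ssr2 could bear no ring, since no promoter was found for them.

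The lectin chaperone calnexin (Canx), which retains glycoproteins until they have folded, gave different pictures by its 2 probe sets. The brighter had signals of 613 in vehicle and 874, 682, 525 and 610 at 1, 6, 12 and 24 h. The dimmer had 184 in vehicle and 187, 327, 381 and 212 at 1, 6, 12 and 24 h, and was highest at 12 h, at 2.07-fold above vehicle. The log2 ratios of these probe sets at 12 h were -0.22 and 1.05, so the direction for calnexin depends on the probe set. Serpinh1, the collagen chaperone HSP47, had 5708 in vehicle and 4976, 11987, 13687 and 12095 at 1, 6, 12 and 24 h. It stood at 2.12-fold above vehicle at 24 h and 2.10-fold at 6 h, but at 24 h was under 2-fold with quantile normalization, at a log2 ratio of 0.81.

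The disulfide isomerases differed among themselves in the size and time of their ratios. Pdia3 (ERp57, which works with the lectin chaperones) had signals of 917 in vehicle and 1111, 1979, 4244 and 3199.9 at 1, 6, 12 and 24 h. It was 4.63-fold above vehicle at 12 h and 3.49-fold at 24 h. Pdia4 (ERp72) had 348 in vehicle and 244, 706, 1615 and 728 at 1, 6, 12 and 24 h, or 4.65-fold and 2.09-fold at 12 and 24 h. Both were higher again at 12 h than at 6 h, by 2.14-fold and 2.29-fold. Pdia6 (P5), in contrast, had 1154 in vehicle and 921, 3908, 2759 and 1916 at 1, 6, 12 and 24 h, and was highest at 6 h at 3.39-fold. Its other 2 probe sets were also highest at 6 h, at 3.30-fold and 3.88-fold, and the first of them was at 3.28-fold at 12 h.

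P4hb, the classical protein disulfide isomerase and a subunit of collagen prolyl hydroxylase, was below vehicle at 6 and 12 h by its brighter probe set. That probe set had 1857 in vehicle and 1604, 1154, 1196 and 1711 at 1, 6, 12 and 24 h, which is 1.61-fold lower at 6 h. Its other probe set had 128 in vehicle and 175, 196, 160.0 and 99.0 at 1, 6, 12 and 24 h, at or near the floor, so no direction can be given for P4hb. Erp44, which retains client proteins through mixed disulfides, was 1.79-fold, 2.38-fold and 1.64-fold above vehicle at 6, 12 and 24 h. Erp29, a relative without the reactive cysteine pair, had 961 in vehicle and 1033, 1418, 1599 and 1754 at 1, 6, 12 and 24 h, reaching 1.83-fold at 24 h. Ero1a, the oxidase that recharges the isomerases, stayed within 1.29-fold of vehicle at all 4 times.

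Of the prolyl isomerases, Fkbp11 had the highest ratio of all the measured genes on the list. Its signal was 95.4 in vehicle and 156, 587, 1353 and 747 at 1, 6, 12 and 24 h. Against the floor this is at least 4.11-fold at 6 h, at least 9.48-fold at 12 h and at least 5.23-fold at 24 h. With the floor at the 60th percentile the bound at 6 h is a log2 ratio of 0.74, which is under 2-fold. Fkbp2 was 1.24-fold, 1.73-fold and 1.52-fold above vehicle at 6, 12 and 24 h. Ppib, or cyclophilin B, which also belongs to the collagen prolyl hydroxylation complex, had 2272 in vehicle and 1610, 2244, 3069.9 and 3733 at 1, 6, 12 and 24 h. It was highest at 24 h, at 1.64-fold.

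The translocon genes stood above vehicle together from 6 h onward. Of the 6 measured, 5 were past 2-fold higher at 6 h, 4 at 12 h and 2 at 24 h (6.34%, 6.16% and 3.41% of all measured genes), with medians of 1.13, 1.38 and 0.86 on the log2 scale. Sec61b, the beta subunit of the channel, had 1014 in vehicle and 830.3, 2339, 3026 and 2768 at 1, 6, 12 and 24 h, and was 2.73-fold above vehicle at 24 h. Sec61a1, the pore-forming subunit, had 3150 in vehicle and 2999, 6300, 5532 and 4743 at 1, 6, 12 and 24 h, at the 2-fold limit at 6 h, and was under it with quantile normalization, at a log2 ratio of 0.98. Its other probe set was higher, at 2.43-fold at 6 h and 2.86-fold at 12 h.

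The translocon-associated protein subunits Ssr1, Ssr2 and Ssr3 help certain chains into the channel. Ssr1 had 272 in vehicle and 282, 561, 718 and 601 at 1, 6, 12 and 24 h, or 2.64-fold above vehicle at 12 h and 2.21-fold at 24 h. Its second probe set was at 1.65-fold at 24 h, and with the floor at the 60th percentile the log2 ratio of Ssr1 there was 0.77, under 2-fold. Ssr2 had 559 in vehicle and 522, 1315, 1532 and 1111 at 1, 6, 12 and 24 h, or 2.74-fold at 12 h. Ssr3 was 1.84-fold and 1.67-fold higher at 6 and 12 h by its brightest probe set and 2.19-fold to 2.86-fold by its other 2 at these times. Serp1, a small protein that stabilises membrane proteins at the channel under stress, had 1521 in vehicle and 1836, 4309, 3905 and 2524 at 1, 6, 12 and 24 h. It was 2.83-fold above vehicle at 6 h.

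The 4 subunits of the oligosaccharyltransferase were each higher than vehicle at 6, 12 and 24 h, and by their brightest probe sets Ddost at 12 h and Rpn2 at 24 h reached 2-fold. At 1 h Ddost, Rpn1 and Dad1 were lower than vehicle, Ddost by 1.55-fold. Ddost had 347 in vehicle and 224, 690.1, 1112 and 651 at 1, 6, 12 and 24 h, or 3.21-fold above vehicle at 12 h. At 6 h Ddost was at 1.99-fold and past 2-fold under 4 other settings, with log2 ratios of 1.05 (quantile normalization) to 1.63 (1 h array as reference), and at 24 h past it against the mean of vehicle and 1 h, at 1.23, and against 1 h, at 1.54. Rpn2 had 1692 in vehicle and 1702, 2290, 3263 and 3686 at 1, 6, 12 and 24 h, or 2.18-fold at 24 h. Its second probe set was also highest at 24 h, at 1.94-fold. Rpn1 was 1.67-fold, 1.94-fold and 1.30-fold higher at 6, 12 and 24 h, and 2.08-fold, 3.01-fold and 2.09-fold by its dimmer probe set. Dad1 was 1.37-fold, 1.67-fold and 1.44-fold higher.

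The list also holds a regulator of the stress response and 3 degradation factors. Xbp1, the transcription factor made active by splicing of its mRNA, had 1474 in vehicle and 1838, 3072, 3026 and 1944 at 1, 6, 12 and 24 h. It was 2.08-fold and 2.05-fold above vehicle at 6 and 12 h, but 1 h lay between vehicle and the later arrays, and against the 1 h array its log2 ratios were 0.74 and 0.72. The array does not tell its spliced from its unspliced form. Herpud1, a stress-induced membrane protein of the degradation complex, ranged from 995.5 to 1156 over vehicle and the 4 times. Sel1l, an adaptor of the same complex, ranged from 423 to 521. Edem1, a lectin of degradation, lay below the floor at 59.8 to 138 on these 5 arrays, and with the floor at the 20th percentile Edem1 was past 2-fold higher at 6 and 12 h. By its 1 probe set, Herpud1 differed from vehicle by at most 1.09-fold at the 4 times. Hspa5, another known target of the stress response, was 4.46-fold higher at 6 h. Any part of the stress response in these values was not tested.

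Where a gene had more than 1 probe set above the floor on all arrays, these could be compared within the same RNA. For 12 such further probe sets of 10 genes, the sign of the ratio matched that of the brightest in 30 of 36 comparisons at 6, 12 and 24 h. The median size of their difference was 0.29 on the log2 scale, and the largest, for calnexin at 12 h, was 1.27. This shows the spread between probe sets, not between animals.

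Other genes of the pathway, not on the list, were counted in the same way, and their counts are to be read against the 6.34%, 6.16% and 3.41% of all measured genes that were 2-fold higher at 6, 12 and 24 h. Of 24 measured genes of N-glycan assembly and trimming, 4 (16.7%) were at least 2-fold higher at 6 h, 3 (12.5%) at 12 h and 1 (4.17%) at 24 h, and none was lower, with medians of 0.31, 0.39 and 0.18 on the log2 scale. Ostc, a further oligosaccharyltransferase subunit, had 847 in vehicle and 752, 2147, 2864 and 1849.6 at 1, 6, 12 and 24 h. Gmppb, which makes GDP-mannose, had 21.5 in vehicle and 33.7, 354, 640 and 162 at 1, 6, 12 and 24 h, at least 4.48-fold higher at 12 h. Mgat2, a Golgi enzyme of complex glycans, was 4.08-fold and 3.63-fold higher at 6 and 12 h. Of 33 genes of transport between the endoplasmic reticulum and Golgi, 4 (12.1%) were higher at 6 h, 6 (18.2%) at 12 h and 2 (6.06%) at 24 h, with none lower. Kdelr3, a receptor that returns escaped chaperones, had 557 in vehicle and 511, 686, 2375 and 1601 at 1, 6, 12 and 24 h. Sec13, of the COPII coat, was 2.46-fold and 2.70-fold higher at 6 and 12 h, and the tethering factor gene Uso1 2.72-fold and 2.84-fold.

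The signal recognition and signal peptidase genes had 1 of 18 (5.56%) past 2-fold higher at 6 h and 1 at 12 h, near the 6.34% and 6.16% of all measured genes, with medians of 0.33 and 0.23. Sec11a, a signal peptidase subunit, was 1.94-fold and 2.12-fold higher at 6 and 12 h, and Srpr, the receptor of the signal recognition particle, 1.82-fold and 1.95-fold. Among 15 degradation genes 2 (13.3%) were higher and 1 lower at both 6 and 12 h, where 8.35% and 6.93% of all measured genes were lower, Selenos being 2.47-fold and 2.93-fold higher. Edem3 was 1.86-fold higher at 12 h. Of 24 other folding and redox genes, the 6 h array had 1 (4.17%) past 2-fold higher and 1 lower, and the 12 h array 3 (12.5%) higher and 1 lower. Selenos is on this list too, and is the gene higher at 6 h. Pdia5, another isomerase, was 2.37-fold higher at 12 h. The medians of these folding genes and of the collagen-modifying genes were -0.02 and -0.03 at 6 h.

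Of 16 sensors and regulators of the stress response, 1, 3, 1 and 0 were 2-fold higher at 1, 6, 12 and 24 h (6.25%, 18.8%, 6.25% and 0%, against 0.853%, 6.34%, 6.16% and 3.41% of all measured genes), and 1 was lower at 24 h. Cebpb, a transcription factor of several stress and hormone responses, was the one at 1 h, with 1026 in vehicle and 2854, 2425, 1293 and 1031 at 1, 6, 12 and 24 h. Atf4, the factor translated when eIF2 alpha is phosphorylated, had 1309 in vehicle and 1301, 5914, 3072 and 1435 at 1, 6, 12 and 24 h, or 4.52-fold above vehicle at 6 h. Ppp1r15b, a subunit of the phosphatase that reverses that phosphorylation, was 2.64-fold higher at 6 h.

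**Figure D4:**
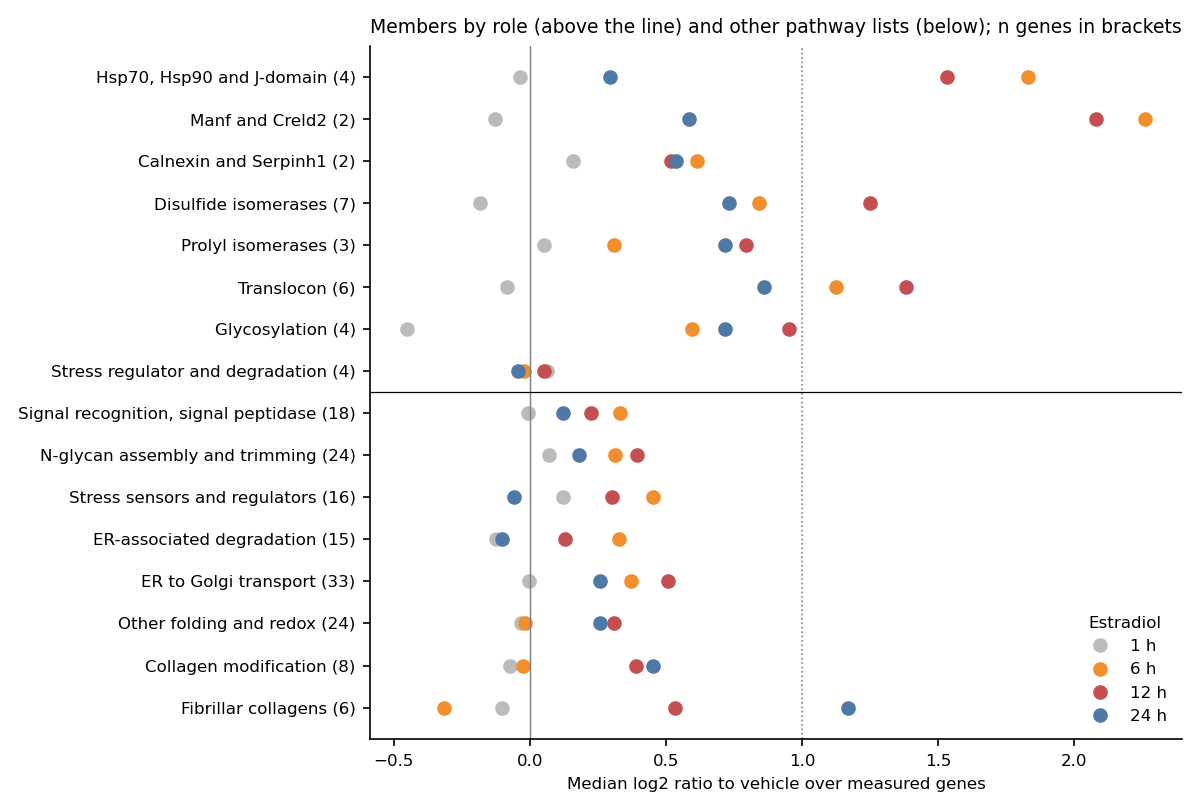
Median log2 ratio to vehicle (x axis) at 1, 6, 12 and 24 h (colours) over the measured genes of each role among the members (above the line) and of other pathway lists (below it), with the number of genes in brackets, 1 array per time and a dotted line at 2-fold. The other pathway lists lie between -0.12 and 0.51 except the collagens, whose median is 1.17 at 24 h and -0.32 at 6 h.

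Most fibrillar collagens, clients of Serpinh1, were 2-fold above vehicle at 24 h but not at 6 h. Of 6 measured, 1 was 2-fold higher at 6 h, 1 at 12 h and 4 at 24 h (6.34%, 6.16% and 3.41% of all measured genes). Their medians were -0.32, 0.53 and 1.17. Col1a1 had 10342 in vehicle and 7476, 9712, 19757 and 29086 at 1, 6, 12 and 24 h. Col1a2 had 4359 in vehicle and 3867, 2679, 6297 and 13098 at 1, 6, 12 and 24 h. At 6 h both were below vehicle while Serpinh1 was 2.10-fold above it. Col5a1 differed from them, with 1303 in vehicle and 1699.8, 3053, 2846 and 2336 at 1, 6, 12 and 24 h. It was highest at 6 h, at 2.34-fold above vehicle. Of 8 collagen-modifying genes 1 was 2-fold higher at 6 and 12 h, namely the prolyl hydroxylase subunit gene P4ha1, at 2.08-fold and 2.29-fold. P4ha2 was 1.97-fold and 1.91-fold higher at 12 and 24 h.

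Markers of several cell types were read on the same arrays, and their part in these results was not tested. Over all measured genes, 0.853%, 6.34%, 6.16% and 3.41% were 2-fold higher at 1, 6, 12 and 24 h, and 0.351%, 8.35%, 6.93% and 3.54% lower. Epithelial markers had a summed signal of 15704 in vehicle and 15059, 16070, 17101 and 23578 at 1, 6, 12 and 24 h. Of 14, 3 were 2-fold higher and 1 lower at 6 and at 12 h, and 4 were higher at 24 h. Smooth muscle markers summed to 50824 in vehicle and 40529, 49209, 58758 and 68871 at 1, 6, 12 and 24 h. Of 8, 2 were 2-fold higher and 1 lower at 12 h, and 1 was higher at 24 h. Stromal markers summed to 66515 in vehicle and 58278, 39274, 54113 and 88286 at 1, 6, 12 and 24 h. Of 14, 5 were 2-fold lower at 6 h, among them Dcn, and 1 was higher. At 12 h 3 were lower, and at 24 h 1 was lower and 3 were higher. Plasma and B cell markers, whose cells are rich in these chaperones, summed to 2229 to 3916 on the vehicle, 1, 6, 12 and 24 h arrays. Of 10, none was 2-fold higher at any of the 4 times, and 1 was 2-fold lower at 12 and at 24 h. Pancreatic acinar cells, likewise rich in these chaperones, belong to another organ than the uterus. Their markers summed to 5837 in vehicle and 3176, 1858, 2686 and 2754 at 1, 6, 12 and 24 h. The sum was thus highest on the vehicle array, which all ratios share. Of 10 acinar markers, 2, 4, 5 and 4 were 2-fold lower at 1, 6, 12 and 24 h, and none was higher. Adipocyte markers summed to 13679 in vehicle and 14595.0, 7414.0, 5312 and 4756 at 1, 6, 12 and 24 h. Of 7, 2, 6 and 5 were 2-fold lower at 6, 12 and 24 h, and none was higher. Endothelial markers had 3 of 9 lower at 6 and 12 h and 2 at 24 h. Macrophage and leukocyte markers had none of 9 past 2-fold at 1, 6 or 12 h, and 1 lower at 24 h. Jchain, a defining gene of plasma cells, had 322 in vehicle and 437, 278, 367 and 243 at 1, 6, 12 and 24 h.

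On the array labelled 3 h, 4 of the 32 measured genes of the list were at least 2-fold higher than in vehicle and none lower. Over all measured genes 10.8% were higher and 12.3% lower. They were Fkbp11 (at least 3.78-fold), Ssr1 (3.31-fold), Erp29 (2.05-fold) and Serp1 (2.05-fold). Hspa5 was 1.69-fold, Manf 1.48-fold and Creld2 1.09-fold higher, while Pdia6 was 1.54-fold and P4hb 1.92-fold lower by their brightest probe sets. The other probe sets of Pdia6 were 1.05-fold and 1.17-fold lower, and that of P4hb was below the floor here and in vehicle. The plasma and B cell markers summed to 12791 on this array, against 3155 in vehicle, and those of macrophages and leukocytes to 27433 against 8007. Their part in these values was not tested.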

How the data were processed

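Gene expression was measured on 6 Affymetrix U74Av2 arrays, 1 per group, from 20 µg of pooled RNA each. The deposited table holds signal intensity, linear in scale, which the authors made with MAS5, per the submitters' processing notes. It has no detection calls. The MAS5 version and genome build are not given in the sources used here. Each array had a 2% trimmed mean of 500.2 to 500.3 as deposited, so the authors had scaled them.

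Of 12488 probe sets, 66 controls were left out. The array's annotation gave 1 gene symbol to 10833 probe sets, several to 396 and none to 1193, and symbols were updated through gene identifiers in a RefSeq table of GRCm38.p6 (10817 matched). Arrays were rescaled to 1 trimmed mean, values under the 40th percentile (142.8) were raised to it, and log2 was taken. Each gene was read by the probe set of highest mean log2 signal. Ratios are to vehicle. With 1 array per group no test, p-value or SD was computed. Precision is limited by the number of arrays. The spike-in controls lay below vehicle in median log2 signal, by -1.08, -0.32, -1.03 and -0.58 at 1, 6, 12 and 24 h, and by -2.28 on the array labelled 3 h.

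The members and all gene lists were chosen with earlier results of these data known. Genes named are all members, and of each further pathway list the 3 with the largest ratio among those with an array at or above 352.65, the 60th percentile, and of each marker list up to 3 of the brightest. Scaling, floor, probe set rule, vehicle reference, fold minimum and a brightness filter were varied. The counting was tested on simulated data. Python 3.11.15, pandas 2.3.3, numpy 2.4.6 and scipy 1.17.1 were used. Promoters came from RefSeq.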

Additional observations from a re-analysis of the deposited data

How the results depend on the processing

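Processing was varied in 8 ways, and in 2 more chosen after seeing the data (the 1 h array as reference, and scaling and floor without the array labelled 3 h). Over these, the counts of higher members at 6 and 12 h stayed within 1.5 times those given, at 15 to 21 and 18 to 25, and the medians at 6, 12 and 24 h at 0.97 to 1.11, 1.14 to 1.29 and 0.56 to 0.76. At 24 h, 12 members instead of 7 were 2-fold higher than the 1 h array, and 17 were 1.5-fold higher than vehicle. On the array labelled 3 h the count of 4 was 7 with median scaling, 2 with quantile normalization and 11 at 1.5-fold. No member was lower by 2-fold, but by 1.5-fold 2, 1 and 1 were at 1, 6 and 12 h, and 3 on the array labelled 3 h. Among single members, Xbp1 at 6 and 12 h (0.90 and 0.88) and Pdia3 at 6 h (0.97) were under 2-fold against the mean of vehicle and 1 h, Ssr1 was under it at 6 and 24 h with the higher floor (0.67 and 0.77), Serpinh1 at 24 h with quantile normalization (0.81) and Dnajc3 at 12 h when its probe sets were averaged by their median (0.69). Over all measured genes, the counts of 56 higher and 23 lower at 1 h were 258 and 161 with the lower floor (20th percentile) and 24 and 5 with the higher (60th). At 24 h, 224 and 232 became 452 and 441, and 136 and 139. The lower counts at 6 and 12 h, 548 and 455, became 838 and 685 with the lower floor and 308 and 273 with the higher. At 1.5-fold the higher counts were 268, 945, 976 and 647 at 1, 6, 12 and 24 h, and the lower counts 217, 1224, 1120 and 826. The cause of these differences was not tested beyond what each setting does by construction. No paired analysis was possible because each group has 1 array.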

Other observations

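A few genes of the same pathway stood below vehicle while most members stood above it. Os9, a lectin that sorts proteins for degradation, had 530 in vehicle and 343, 127.0, 250 and 369 at 1, 6, 12 and 24 h, which is at least 3.71-fold lower at 6 h and 2.12-fold lower at 12 h. Clgn, a relative of calnexin known from the testis, had 477 in vehicle and 456, 345, 153 and 201 at 1, 6, 12 and 24 h. It was 3.11-fold lower at 12 h and 2.37-fold lower at 24 h than vehicle. Sec62, which serves the entry of some chains through Sec61 after translation, had 506 in vehicle and 384, 369, 260 and 215.0 at 1, 6, 12 and 24 h. It was 2.35-fold lower at 24 h, whereas Sec61b was 2.73-fold higher. P3h3, a collagen prolyl hydroxylase, was 1.97-fold lower than vehicle at 6 h and 1.37-fold higher at 24 h.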
